A study of Mus musculus with 6 samples.

Results

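Promoter-anchored interactions of the translation initiation and elongation factor genes were examined in mouse embryonic stem cells (mESCs). The genes were those named on the promoter side of either HiCap replicate list with a symbol that starts with Eif and a digit from 1 to 6, or with Eef and 1 or 2, which gave 63 of the 21202 listed genes. The rule reads symbols only. It therefore also took in 5 genes under the old Argonaute symbols Eif2c1 to Eif2c5, the 4 kinases of eIF2, the eEF2 kinase and the proteins that bind eIF4E.

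HiCap joins Hi-C, in which DNA ends that lie close together in fixed nuclei are ligated and sequenced as pairs, to sequence capture of promoter fragments. The samples were 2 biological replicates of HiCap and 2 replicates of Hi-C without capture, all from undifferentiated mESCs of the line R1 grown with serum and LIF on gelatin. The Hi-C replicates are pooled in 1 list, and 2 Capture-C samples were not analysed here. The lists name positions of MboI restriction fragments on mm9 and hold no read numbers or expression values. The exact depth behind an interaction is therefore unknown, and the cell label could not be checked against marker genes.

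Translation factors are soluble proteins that guide the ribosome. In initiation, eIF2 brings the initiator tRNA to the small subunit, eIF1 and eIF1A keep the scanning complex open until the start codon is met, eIF3 holds the complex together, and eIF4F (the cap-binding eIF4E, the helicase eIF4A and the scaffold eIF4G) recruits the mRNA. In elongation, eEF1A delivers aminoacyl-tRNAs, the eEF1B subunits recharge eEF1A with GTP, and eEF2 moves the ribosome along the codons. Most of these genes are expressed in every cell type, and several products, such as the kinases and the eIF4E-binding proteins, tune protein synthesis under stress and growth signals.

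An interaction was called when both replicate lists held the same promoter fragment and the same distal region. The replicate 1 list held 2447 interactions of these genes and the replicate 2 list 2742, and 570 were called, from 74 promoter fragments to 512 distal regions. Of the 63 genes, 49 had a call, which is 77.8% (exact binomial 95% interval 65.5 to 87.3%), beside 60.7% of all listed genes. The median was 4 called distal regions per gene and the mean 8.17, beside 1 and 4.27 over all listed genes. At 10 or more called distal regions stood 17 genes, 27.0% (16.6 to 39.7%), beside 13.7% of all listed genes. The intervals given here reflect counting error alone, and calls from the same fragment depend on each other.

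The number of called distal regions was unevenly spread. No call was made for 14 genes, 21 had 1 to 4, 11 had 5 to 9, 10 had 10 to 19 and 7 had 20 or more. The 10 genes with the most held 298 of the 515 distal regions summed over genes, or 57.9%. That share was not taken over all listed genes, where the highest number was 121, so it cannot be read as high or low. A call needs both lists, so short lists leave little room for one by rule. The genes without a call had few listed interactions, with medians of 3.5 (replicate 1) and 4 (replicate 2) distal regions and maxima of 15 and 13. Over all 63 genes the medians were 29 and 21, beside 11 and 11 over all listed genes.

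**Figure D1:**
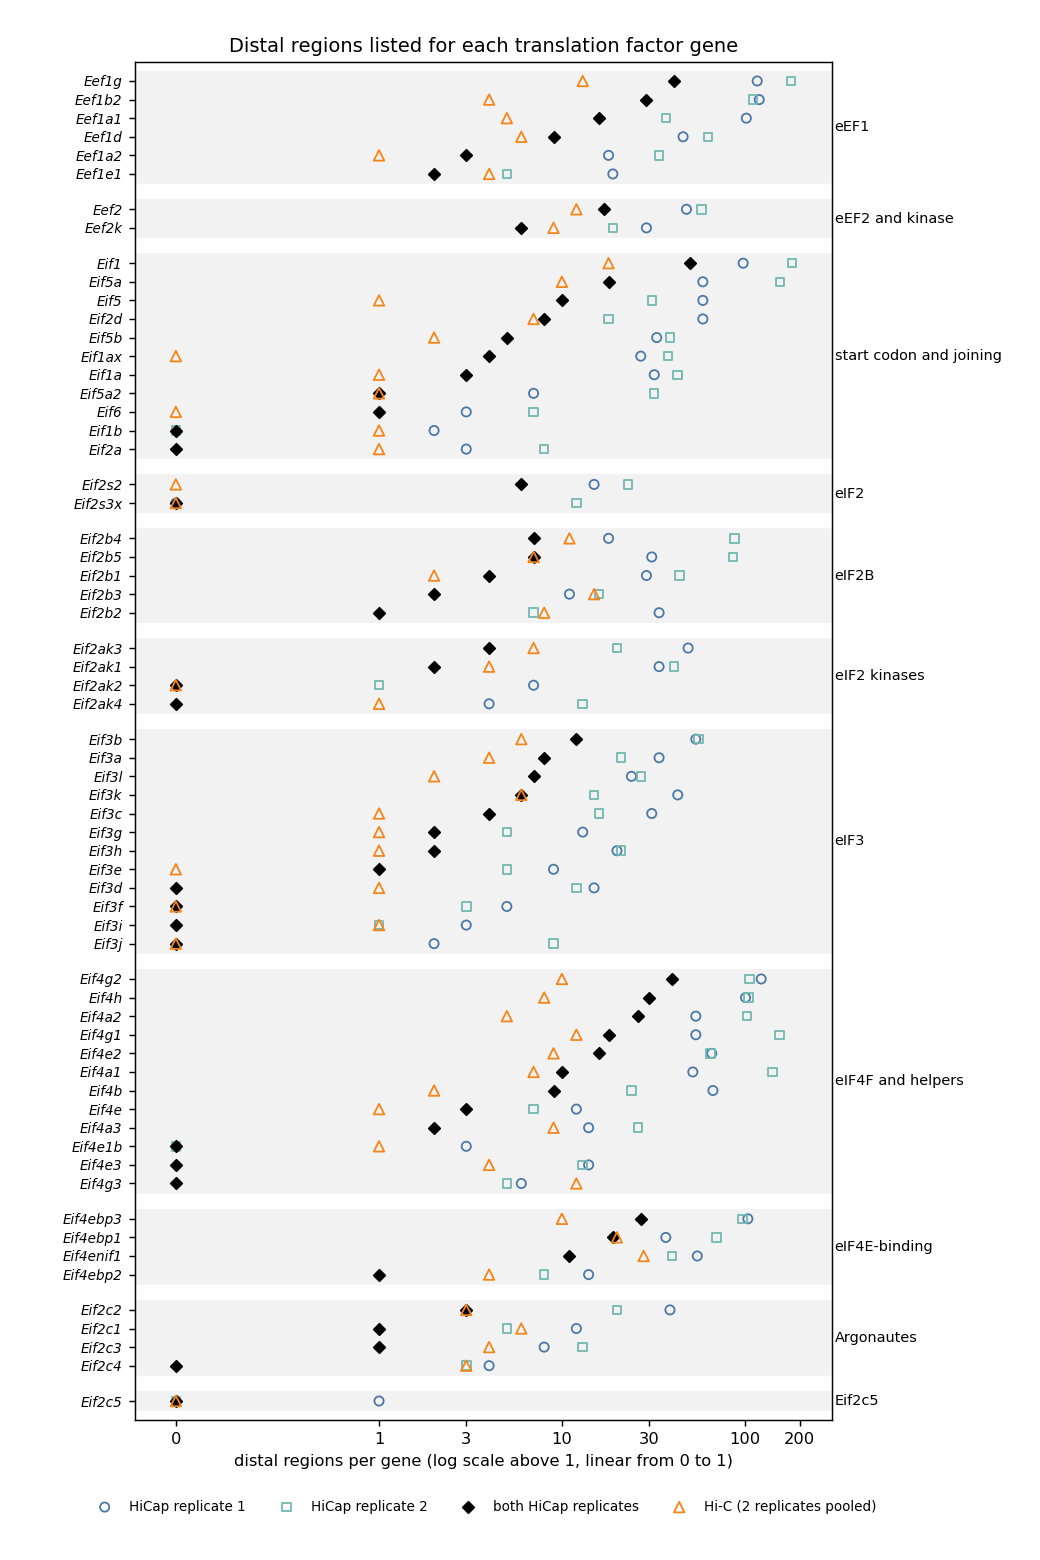
Each row is 1 of the 63 genes, grouped by complex; the horizontal axis gives the number of distal regions per gene in the HiCap replicate 1 list (circles), the HiCap replicate 2 list (squares), the pooled Hi-C list (triangles) and in both HiCap lists (filled diamonds). Eif1 has the most called distal regions, 50, and 14 genes sit at 0 for calls.

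The number of calls rose only weakly with the number of promoter fragments. Across the 63 genes the Spearman rho between promoter fragments and called distal regions was 0.13, beside 0.23 across all listed genes. The 39 factor genes with 1 listed promoter fragment had a median of 3 called distal regions and 29 of them had a call, while the 24 with more than 1 fragment had a median of 5 and 20 had a call. Over all listed genes the same split gave medians of 1 and 3, with calls in 55.2% of 15923 genes and 77.1% of 5279 genes. Listed genes within 50 kb numbered a median of 3 for the 17 factor genes with 10 or more calls, 1 for the 14 without a call and 2 over all listed genes. Between that number and called distal regions the Spearman rho was 0.43 across the 63 genes, beside 0.26 across all listed genes. The part of these features in the counts was not tested.

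The elongation factors all had calls. The 7 genes without the kinase held 138 called interactions, with a median of 16 called distal regions per gene. Eef1g, the gamma subunit of the exchange factor eEF1B, had 117 distal regions listed by replicate 1, 179 by replicate 2 and 41 by both. Eef1b2, the catalytic exchange subunit, had 120, 111 and 29, so its lists were of like size. All 29 came from a single promoter fragment that also holds an annotated start of Ndufs1, so they cannot be assigned to Eef1b2 alone. Eef1a1, the main form of eEF1A, had 102 in replicate 1 but 37 in replicate 2, and 16 were called. The remaining eEF1 genes had fewer calls. Eef1d, another exchange subunit, had 9 called distal regions, Eef1a2, the form of muscle and neurons, had 3, and Eef1e1, a scaffold protein of the tRNA synthetase complex, had 2.

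Eef2, the translocase, had 48 distal regions listed by replicate 1, 58 by replicate 2 and 17 by both, at distances of 3.25 to 94.8 kb. The pooled Hi-C list held 7 of these 17. The gene of its inhibitory kinase, Eef2k, had 6 called distal regions, and none was in the Hi-C list. Eef2 shared called distal regions with other listed genes. Of the 17 distal regions, 9 were also called for Snord37, 8 for Dapk3 and 7 for Pias4. The region in an exon of Dapk3 at chr10:80653349-80653862, 14.0 kb downstream and also in Hi-C, was called for 13 genes in all.

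Several of these interactions start or end in short fragments, whose sequence is shown here from mm9 on the plus strand, with the MboI sites that bound the fragments in capitals. The pair from Eef2 shows called distal regions that Hi-C also held, 1 lying upstream between genes at chr10:80635961-80636130 and 1 in an exon of Eef2 itself at chr10:80643857-80644068. The fragment from Eef1g, at chr19:9046730-9046970, is the promoter fragment of an internal transcript start. With 237 bp it was the anchor of 18 calls.
Eef2 upstream distal region: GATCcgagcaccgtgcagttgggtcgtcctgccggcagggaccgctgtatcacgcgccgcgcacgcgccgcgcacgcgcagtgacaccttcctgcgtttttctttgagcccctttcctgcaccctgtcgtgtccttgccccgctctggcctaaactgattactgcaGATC
Eef2 exonic distal region: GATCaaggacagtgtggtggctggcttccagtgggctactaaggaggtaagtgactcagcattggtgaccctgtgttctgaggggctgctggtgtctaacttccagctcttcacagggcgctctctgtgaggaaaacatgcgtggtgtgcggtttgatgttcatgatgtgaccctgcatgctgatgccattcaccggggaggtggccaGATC
Eef1g internal promoter fragment: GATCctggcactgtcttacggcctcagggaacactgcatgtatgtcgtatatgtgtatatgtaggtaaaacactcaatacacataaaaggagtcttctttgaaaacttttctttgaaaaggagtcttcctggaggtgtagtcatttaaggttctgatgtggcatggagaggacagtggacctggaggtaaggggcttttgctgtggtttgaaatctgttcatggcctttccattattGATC

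Eef1g had 3 promoter fragments, and their calls differed in number. The fragment at chr19:9041462-9041822 had 33 calls, the adjoining one at chr19:9041822-9042886 had 4, and the internal fragment had 18. In G+C they held 62.2, 51.6 and 42.6%. Of the 41 distal regions, 11 were also called for Ahnak, 7 for Tut1 and 6 for Scgb1a1. Eef1g was the source of 4 calls of 100 kb or more, up to 156 kb, and the regions of 2 other calls held the annotated transcript starts of Eml3 and Ahnak.

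Among the genes of start codon selection, ribosomal subunit joining and related steps, 9 of 11 had a call, with a median of 4 called distal regions and a median distance of 9.15 kb. Eif1, which keeps the scanning complex from starting at wrong codons, had the most called distal regions of all the factor genes. It was listed with 98 distal regions in replicate 1, 181 in replicate 2 and 18 in Hi-C. Both HiCap lists held 50, of which 16 were in Hi-C. The authors' combined list held the same 50 distal regions with another promoter fragment. In the replicate lists all 50 started from 1 promoter fragment of 682 bp at chr11:100180918-100181600, and 31 lay within 10 kb of it.

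Many of the calls of Eif1 fell on neighbouring MboI fragments. Of the 50 fragments, 36 stood in 9 runs whose members adjoin end to end, the longest with 8, 7 and 6 fragments. Over all factor genes, Eif1 included, 199 of the 570 called interactions, or 34.9%, stood in such runs. The share was not taken over all listed genes, and the part of short distance in it was not tested. The run of 8 covered 1813 bp from chr11:100183761 on, 2.56 kb downstream at its nearest, with 3 fragments in Hi-C. Between genes lay 46 of the 50, or 92.0%. Of the 50, 17 were upstream and 33 downstream, and 16 were also called for Gast, whose gene body holds 1 of them. The sequences below are parts of these runs that Hi-C also held. The first comes from the run of 8, at chr11:100183762-100183885. The other pair adjoins in the run of 7, at chr11:100187874-100188037 and chr11:100188034-100188315, so that the last MboI site of the former is the first of the latter.
Eif1 distal region at 2.56 kb: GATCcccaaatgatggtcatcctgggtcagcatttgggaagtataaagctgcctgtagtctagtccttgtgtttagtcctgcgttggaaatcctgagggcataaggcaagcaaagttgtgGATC
Eif1 distal region at 6.69 kb: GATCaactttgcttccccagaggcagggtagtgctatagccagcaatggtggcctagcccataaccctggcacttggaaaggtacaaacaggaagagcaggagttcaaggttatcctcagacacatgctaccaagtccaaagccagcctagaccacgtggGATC
Eif1 distal region at 6.91 kb: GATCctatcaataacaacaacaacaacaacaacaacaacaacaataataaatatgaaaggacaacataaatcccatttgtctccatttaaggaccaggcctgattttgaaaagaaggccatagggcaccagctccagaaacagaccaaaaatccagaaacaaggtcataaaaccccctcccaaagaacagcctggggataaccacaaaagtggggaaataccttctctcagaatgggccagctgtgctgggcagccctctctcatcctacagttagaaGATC

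Eif5a, a factor that carries the modified lysine hypusine and helps the ribosome through stalling motifs, had 59 distal regions in replicate 1, 156 in replicate 2 and 18 called. Hi-C held 6 of the 18. The promoter region of Eif5a had 10 listed genes within 50 kb, and 5 of its calls spanned 100 kb or more. The longest, 165 kb, ended in an intron of Polr2a, the gene of the largest RNA polymerase II subunit. Another region, in an exon of Chrnb1 at chr11:69597748-69599378, was called for 24 genes, Eif5a among them, and 16 listed genes lay between. Its paralogue Eif5a2 had 7 and 32 listed distal regions and 1 call.

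The others in this group had lower numbers. Eif5, the GTPase activator of eIF2, had 59 and 31 listed distal regions and 10 called. Eif2d, which can deliver tRNA without GTP, had 8 called, Eif5b, the GTPase of subunit joining, 5, Eif1ax 4, Eif1a 3, and Eif6, which keeps the large subunit free, 1. Eif2a, with 3 and 8 listed distal regions, and Eif1b had none. For Eif1b the replicate 1 list held 2 distal regions and the replicate 2 list none, and 1 of the 2 was the promoter fragment itself.

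**Figure D2:**
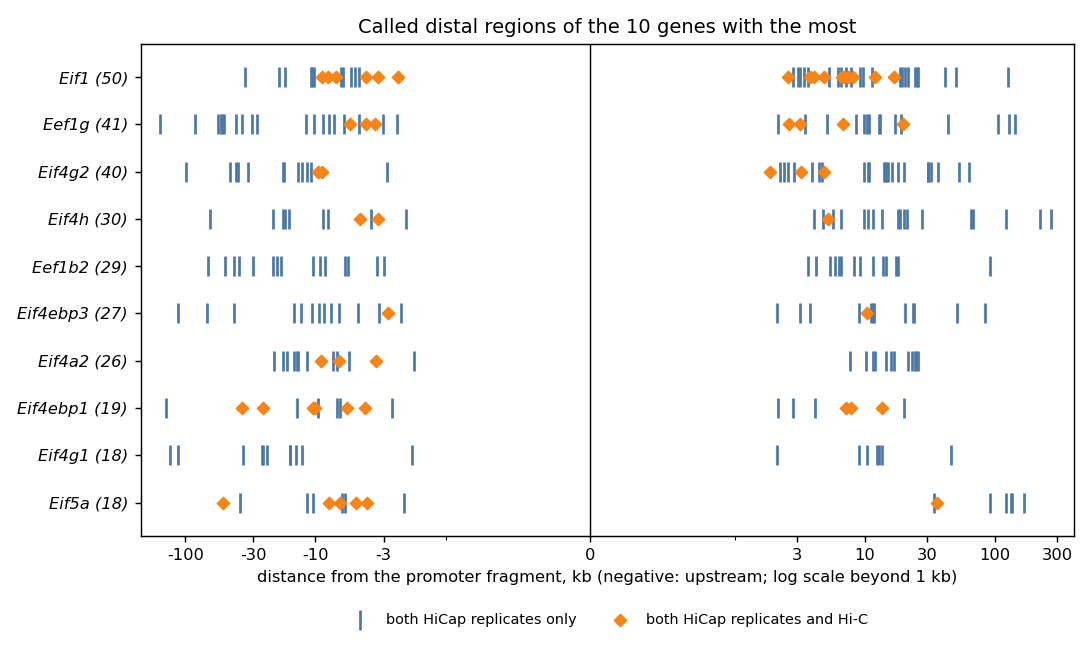
Positions of called distal regions of the 10 genes with the most, as distance in kb from the nearest promoter fragment of the gene with that call (negative values upstream, log scale beyond 1 kb); bars are regions in both HiCap lists and diamonds are those that the pooled Hi-C list also held. The diamonds of Eif1 number 16 and those of Eif4ebp1 9, while Eef1b2 and Eif4g1 have 0.

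The eIF4F genes and their helpers held the most called interactions of any group. They had 176, with calls in 9 of 12 genes, a median of 9.5 called distal regions per gene and a median distance of 13.4 kb. Eif4g2, which encodes an eIF4G-like scaffold that does not bind eIF4E, had 123 distal regions in replicate 1, 106 in replicate 2 and 40 called. Eif4h, a helper of the helicase, had 101, 105 and 30. Eif4a2, a helicase, had 54, 103 and 26, and for 31 of its called interactions the authors' combined list named another promoter fragment. These values put Eif4g2, Eif4h and Eif4a2 among the 7 factor genes with 20 or more calls.

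Eif4g1, the main scaffold, had 54 distal regions in replicate 1 against 155 in replicate 2, and 18 were called. The Hi-C list held 12 distal regions for Eif4g1. None was among the 18, but at least 1 HiCap list held 6 of the 12. Eif4e2, a cap-binding homologue, had 66, 65 and 16, and 12 of its called interactions ended inside its own gene. Eif4a1, the other main helicase, had 52 and 142 listed and 10 called distal regions, and 12 listed genes lay within 50 kb, the most near any factor gene. Eif4b, which stimulates the helicase, had 67 and 24 listed and 9 called. Eif4e, the cap-binding protein itself, had 3, and Eif4a3, the helicase of the exon junction complex, had 2. Without a call were Eif4e3, with 14 listed distal regions in replicate 1 and 13 in replicate 2, Eif4g3, with 6 and 5, and Eif4e1b, with 3 and none. The Hi-C list held 12 distal regions for Eif4g3, and neither HiCap list held any of the 12.

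Eif4g2, on the minus strand, had 6 listed promoter fragments, of which 4 had calls. The one furthest upstream, at chr7:118226344-118227058 with 65.8% G+C, had only 3. Most of the calls came from fragments downstream of it. The fragment at chr7:118216522-118216832 had 29, and the one at chr7:118220995-118221284, with 289 bp and 39.4% G+C, had 15. From the former ran the longest run of adjoining called fragments of any factor gene, with 10 fragments over 3422 bp from 1.86 kb away, 3 of them in Hi-C. In all, 18 of its called interactions ended inside Eif4g2. The 30 calls of Eif4h all came from 1 fragment of 138 bp with 67.4% G+C. Both fragments are shown because they are the anchors of many of the calls of these genes. Over all promoter fragments of the factor genes, the median length was 719.5 bp with a call and 722.5 bp without. That of Eif4g2 runs from chr7:118220994 to 118221286, and that of Eif4h is given in part, from chr5:135115189 to 135115283, both from mm9 on the plus strand with MboI sites in capitals.
Eif4g2 internal promoter fragment: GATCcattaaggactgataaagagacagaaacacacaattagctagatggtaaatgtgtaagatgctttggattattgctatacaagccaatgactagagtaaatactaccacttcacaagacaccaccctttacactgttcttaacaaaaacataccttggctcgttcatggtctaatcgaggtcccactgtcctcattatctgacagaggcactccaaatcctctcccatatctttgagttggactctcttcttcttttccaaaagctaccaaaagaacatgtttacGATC
Eif4h promoter fragment, in part: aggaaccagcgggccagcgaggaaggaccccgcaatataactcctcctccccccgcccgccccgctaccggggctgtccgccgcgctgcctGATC

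The proteins that bind eIF4E had calls at each of their 4 genes, with 62 interactions and a median of 15 called distal regions. Eif4ebp3 had 104 distal regions in replicate 1, 97 in replicate 2 and 27 called, of which 13 were also called for Sra1. Eif4ebp1, the best known repressor under control of mTOR, had 37, 70 and 19, and Hi-C held 20 distal regions, 9 of them called. Eif4enif1, which carries eIF4E into the nucleus, had 55, 40 and 11, with 28 in Hi-C, the most of all the factor genes, but only 2 of those were called. Eif4ebp2 had 14 and 8 listed distal regions and 1 call.

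The Hi-C supported regions of Eif4ebp1 lay on both sides of the promoter. They included intergenic regions 36.6 and 25.2 kb upstream, which were also called for Adrb3 and Got1l1, and 3 regions in introns of Eif4ebp1 at 7.12, 7.77 and 13.6 kb downstream. The shortest of the 9, at chr8:28366529-28366787 and 4.19 kb upstream, is shown from mm9 on the plus strand with its MboI sites in capitals.
Eif4ebp1 distal region at 4.19 kb: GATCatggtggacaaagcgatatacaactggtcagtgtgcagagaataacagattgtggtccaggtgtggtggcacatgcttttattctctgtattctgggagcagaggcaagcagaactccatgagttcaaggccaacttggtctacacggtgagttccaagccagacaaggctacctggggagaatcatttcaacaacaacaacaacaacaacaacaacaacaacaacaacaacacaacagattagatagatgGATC

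Genes of eIF2 and of its regulators had fewer calls. Eif2s2, the beta subunit of eIF2, had 15 and 23 listed distal regions and 6 called, while Eif2s3x, the gamma subunit, had 12 in replicate 2, none in replicate 1 and so no call. All 5 genes of eIF2B, which recharges eIF2 with GTP, had calls, with a median of 4. Eif2b4 and Eif2b5 had 7 each, Eif2b1 4, Eif2b3 2 and Eif2b2 1. The lists of Eif2b4 were of unequal size, with 18 distal regions in replicate 1 and 88 in replicate 2. Eif2b3 had 15 distal regions in Hi-C, and none of them was called. Of the 4 eIF2 kinases, Eif2ak3 (the sensor of unfolded proteins, PERK) had 49 and 20 listed distal regions and 4 called, and Eif2ak1 (the haem-regulated kinase) had 2 called. Without a call were Eif2ak2 (PKR), with 7 and 1 listed, and Eif2ak4 (GCN2, the sensor of amino acid shortage), with 4 and 13.

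The genes of eIF3 had a median of 2 called distal regions, and 8 of 12 had a call. Eif3b, a core subunit, had 54 and 56 listed distal regions and 12 called. Eif3a had 8, Eif3l 7, Eif3k 6, Eif3c 4, Eif3g and Eif3h 2 each, and Eif3e 1. Without a call were Eif3d, with 15 and 12 listed distal regions, Eif3f, with 5 and 3, Eif3i, with 3 and 1, and Eif3j, with 2 and 9. The subunit genes thus ranged from 0 to 12 called distal regions. The Hi-C list held 4 of the 42 called interactions, 9.52% (2.66 to 22.6%).

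The Argonaute genes, whose products act in RNA silencing and not in translation initiation, had 7 called interactions in all. Eif2c2 had 39 and 20 listed distal regions and 3 called, Eif2c1 and Eif2c3 had 1 called each, and Eif2c4, with 4 and 3 listed, and Eif2c5, with 1 in replicate 1, had none. The single region of Eif2c3 was the single region of Eif2c1, at chr4:126142821-126143512. Besides this, only Eif2b5 and Eif4g1 shared called distal regions among the factor genes. Their shared regions lay between genes at chr16:20545367-20546688 and chr16:20565253-20565534, and the second was called for 12 genes.

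**Figure D3:**
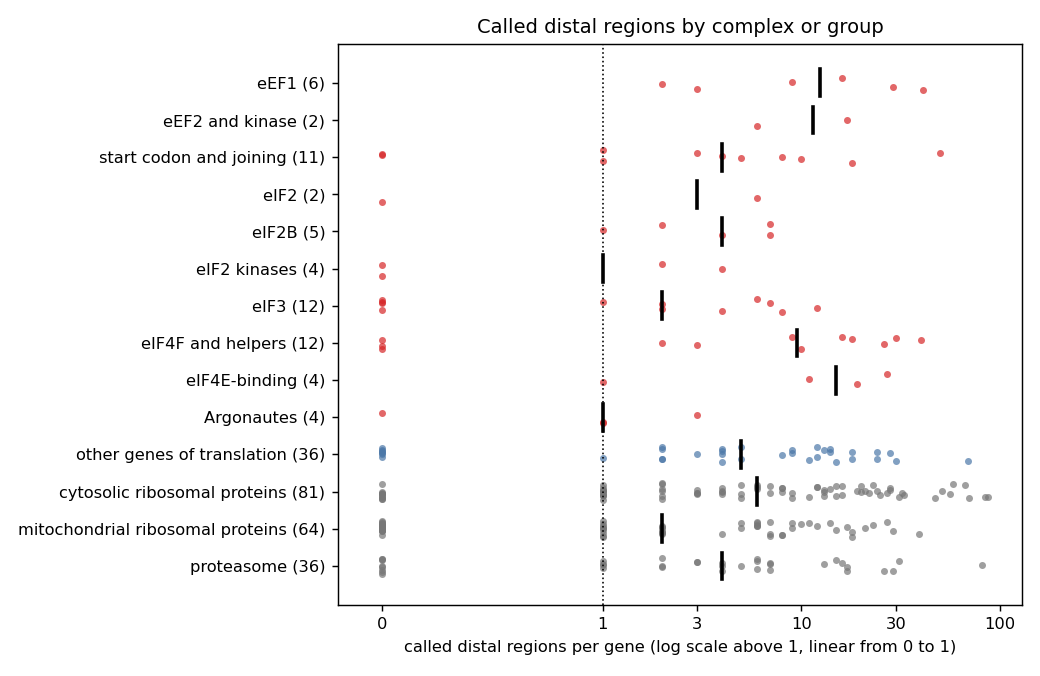
Called distal regions per gene (log scale above 1) by complex or group, with the number of genes in brackets; points are genes, scattered vertically for legibility, thick lines are medians and the dotted line is the median of 1 over all listed genes. Medians of the factor groups run from 1 for the eIF2 kinases and the Argonautes to 15 for the eIF4E-binding proteins.

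Other genes of translation, which the rule did not take in, were read in the same way. Of 36 such genes, 29 had a call, or 80.6%, with a median of 5 called distal regions. Among release and recycling factors, Gspt1 (eRF3a) had 28 and Etf1 (eRF1) 13, and of the mitochondrial factors Mtif2 and Tsfm had 14 each. Genes of cytosolic ribosomal proteins had a call in 70 of 81 cases with a median of 6, those of mitochondrial ribosomal proteins in 44 of 64 with a median of 2, and those of proteasome subunits in 28 of 36 with a median of 4. No difference between these groups was tested. Called distal regions were shared with 1 proteasome gene, Psmd2, in 8 cases at Eif4g1 or Eif2b5, and with 1 gene of a mitochondrial ribosomal protein, Mrpl4, in 1 case at Eif3g.

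The replicate lists ranked the genes alike but not their distances. Across the 63 genes, numbers of distal regions in the replicate lists gave a Spearman rho of 0.80, beside 0.70 across all listed genes; genes share the 2 libraries and are not independent. The replicate 2 list was the longer for 31 genes and the replicate 1 list for 32. The greatest differences were at Eif4g1, Eif5a, Eif4a1, Eif1 and Eif2b4, each with more in replicate 2. Of the differences in the other direction, that of Eef1a1 stood out, with 102 against 37. The median distance of listed interactions was 20.8 kb in replicate 1 and 72.1 kb in replicate 2, beside 19.8 and 101 kb over all listed interactions. Distances over 1 Mb made up 0.409% of the former list of factor genes and 16.3% of the latter.

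**Figure D4:**
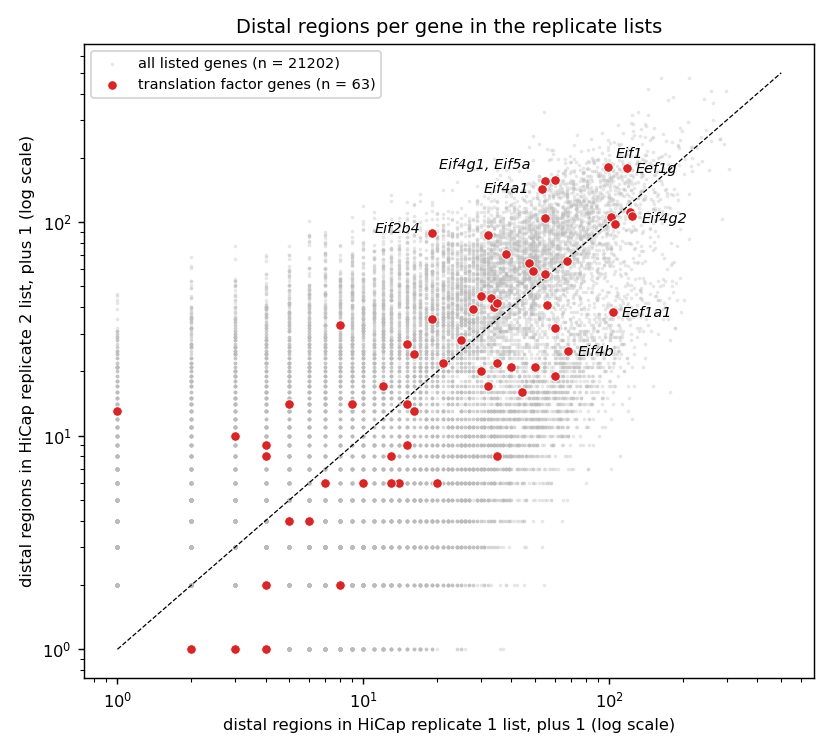
Number of distal regions per gene, plus 1, in the HiCap replicate 1 list (horizontal, log scale) and the HiCap replicate 2 list (vertical, log scale), for all 21202 listed genes (grey) and the 63 translation factor genes (red); the dashed line marks equal numbers. Eif1, Eif5a, Eif4g1, Eif4a1 and Eif2b4 lie above the line and Eef1a1 and Eif4b below it.

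Of the replicate 1 interactions of factor genes, 570 of 2447, or 23.3%, were in the replicate 2 list, beside 19.0% over all interactions. In the other direction, 20.8% (19.3 to 22.4%) of the replicate 2 interactions were in replicate 1, beside 17.1%. The share of replicate 1 interactions found again fell with distance, from 39.6% (34.2 to 45.1%) at 1 to 5 kb to 8.67% (6.01 to 12.0%) over 100 kb, and over all listed genes from 31.6 to 7.37%. At 10 to 25 kb it was 30.4% (26.8 to 34.2%) for factor genes and 20.1% for all genes, and at 25 to 100 kb 13.2 and 13.1%.

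Called interactions were shorter than listed ones. Their median distance was 11.1 kb, beside 10.3 kb over all called interactions, and 32.6% (28.8 to 36.7%) lay at 10 to 25 kb, beside 25.5%. Over 25 kb lay 129, or 22.6%, beside 25.6%, and 100 kb or more were spanned by 32, or 5.61% (3.87 to 7.83%), beside 6.32%. These 32 belonged to 18 genes. The longest call, 1855 kb, linked Eif4b to a region in an exon of Dip2b, with 60 listed genes in between. The next was a call of 454 kb from Eif3l to exons of Ddx17 and Kdelr3. Eif2ak1 reached 303 kb to an exon of Rac1, and Eif4h 268 and 221 kb to introns of Gtf2ird1. None of these 5 was in Hi-C.

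The pooled Hi-C list held 79 of the 570 called interactions, 13.9% (11.1 to 17.0%), beside 12.5% over all called interactions. They belonged to 23 genes, and 16 of them to Eif1. Without Eif1 the share was 12.1% (9.44 to 15.2%), and for Eif1 alone 32.0% (19.5 to 46.7%). By distance it was 25.2% (17.9 to 33.7%) at 1 to 5 kb, 18.0% (11.7 to 25.7%) at 5 to 10 kb and 8.60% (5.00 to 13.6%) at 10 to 25 kb. Over all listed genes these shares were 20.7, 15.9 and 9.61%, within the intervals of the factor genes. Over 100 kb Hi-C held 0 of 32, an interval up to 10.9%, beside 2.70% over all genes.

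Read from the Hi-C side, 54 of the 63 genes had 344 interactions in that list, at a median distance of 10.3 kb. Of these, 79 were called, 23.0% (18.6 to 27.8%), beside 15.8% over all Hi-C interactions. At least 1 HiCap list held 174, 50.6% (45.2 to 56.0%), beside 39.4%, and the other 170 were in neither. After Eif4enif1 with 28 distal regions, the largest Hi-C numbers were those of Eif4ebp1 with 20, Eif1 with 18, Eif2b3 with 15 and Eef1g with 13. Of these Hi-C regions HiCap called 2 for Eif4enif1, 9 for Eif4ebp1, 16 for Eif1, none for Eif2b3 and 7 for Eef1g.

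**Figure D5:**
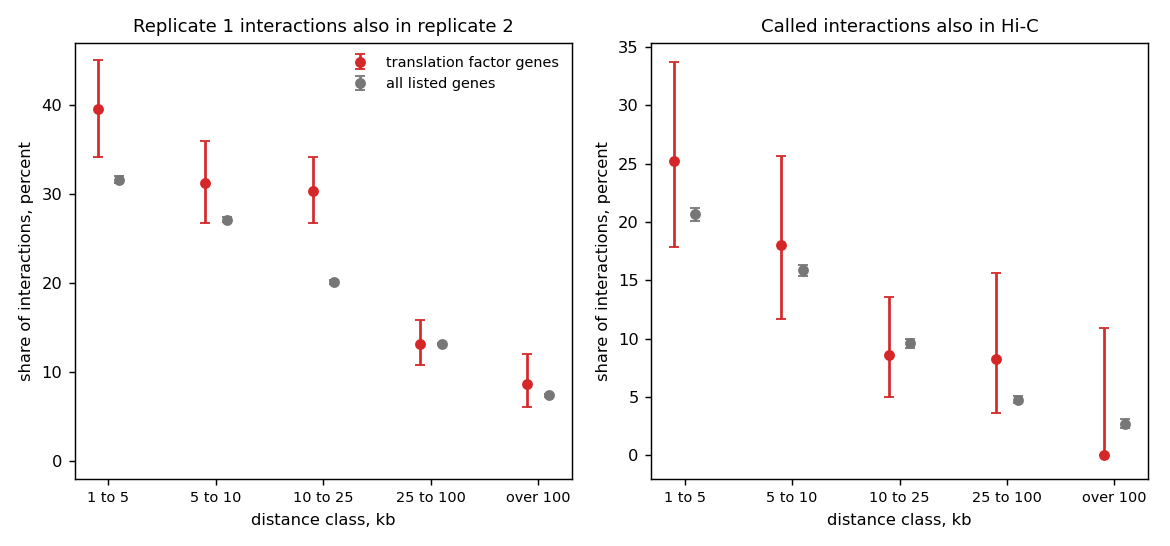
Share of interactions, in percent with exact binomial 95% intervals, by distance class in kb: replicate 1 interactions that the replicate 2 list also held (left) and called interactions that the pooled Hi-C list also held (right), for the translation factor genes (red) and all listed genes (grey). Both shares fall with distance; on the left the factor genes are at 39.6% at 1 to 5 kb and 8.67% over 100 kb, and on the right at 25.2 and 0%.

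Distal regions of factor genes lay between genes in 43.3% (39.2 to 47.5%) of called interactions, beside 34.9% over all called interactions, in introns in 27.4% (23.7 to 31.2%), beside 35.1%, and in exons in 29.3%, beside 30.1%. Of the 247 regions between genes, 46 belonged to Eif1, and without it that share was 38.7% (34.4 to 43.0%). Inside the gene's own body ended 118, or 20.7%, led by Eif4g2 with 18, Eif4e2 with 12 and Eef1g and Eif4h with 11 each. That share was not taken over all called interactions, so it cannot be read as high or low. Upstream of the promoter fragment, by the strand of the gene, lay 50.7% (46.5 to 54.9%), beside 47.8%. With an internal promoter fragment such a region can lie inside the gene. No other listed promoter lay between the ends of 63.3% (59.2 to 67.3%), beside 69.4%, and 5 or more genes were skipped by 4.91%, beside 4.25%. The distal region was called for no other gene in 56.0% (51.8 to 60.1%) of interactions, beside 66.5%, and for 5 or more genes in 9.12%, beside 10.0%. The median G+C of the distal regions was 46.0%, beside 46.5%, and the median length 586 bp, beside 568 bp.

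Promoter sequences of these genes were read from RefSeq on build GRCm38.p6, as windows of 300 bases around the start, and 49 of the 63 genes were matched. The E-box CACGTG, on either strand, was in a window of 12 of the 49 genes, or 24.5%, beside 8.91% of 17492 protein-coding genes. The ETS motif CCGGAAGT was in 9, or 18.4%, beside 5.69%, and the MboI site GATC in 24, or 49.0%, beside 50.7%. Of the other motifs searched on both strands, CCAAT was in 17 genes, or 34.7%, beside 42.3%. The CRE motif TGACGTCA was in 1 gene, or 2.04%, beside 2.54%, and the NRF1 and YY1 motifs were in 1 gene each, beside 1.47 and 1.06%. Of the genes with 10 or more called distal regions, Eef2, Eif4a1, Eif4g1, Eif4h and Eif5a held the E-box. Eef1b2, Eif4e2 and Eif5a held the ETS motif. Neither motif was found for Eif1, the gene with the most calls. Eef1g and Eif4g2, next in calls, were found with none of the motifs searched. They may be among the factor genes that were not matched, so their promoters cannot be read as lacking these motifs. Eif1b and Eif3f, without a call, held the E-box. A link between motifs and calls was not tested. A match of letters is a description and not a measured site. For 3 genes with an E-box and 17 or more called distal regions, the 150 bases before the start are shown on the strand of the gene, with the E-box in capitals. They lie at chr10:81176481-81176630 on the plus strand (Eef2), chr16:20672577-20672726 on the plus strand (Eif4g1) and chr5:134639410-134639559 on the minus strand (Eif4h), on GRCm38.p6.
Eef2 promoter: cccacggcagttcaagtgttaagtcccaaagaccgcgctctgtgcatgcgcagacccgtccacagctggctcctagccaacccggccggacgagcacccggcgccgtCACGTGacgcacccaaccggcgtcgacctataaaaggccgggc
Eif4g1 promoter: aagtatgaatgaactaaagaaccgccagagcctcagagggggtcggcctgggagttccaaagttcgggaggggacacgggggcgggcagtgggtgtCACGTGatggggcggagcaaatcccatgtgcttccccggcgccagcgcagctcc
Eif4h promoter: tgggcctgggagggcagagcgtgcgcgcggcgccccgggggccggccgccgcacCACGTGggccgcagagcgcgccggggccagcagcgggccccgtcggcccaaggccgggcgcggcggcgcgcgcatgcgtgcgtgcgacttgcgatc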

How the data were processed

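The authors carried out HiCap and Hi-C with the enzyme MboI, which cuts at GATC, and aligned the reads to mm9. The deposited lists hold other values than counts: start and end positions, not normalized, of promoter fragments (each with a gene) and of their distal partners. The 4 lists are those of HiCap replicate 1, HiCap replicate 2, the authors' combined calls and pooled Hi-C. Read numbers are not in the lists, so the exact depth behind each interaction is unknown and no test across samples was made. For a HiCap call the paper required a minimum of supporting read pairs in each replicate. For Hi-C, the minimum of read pairs is not given in the sources used here.

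Interactions, each counted once per promoter fragment and partner, were compared by exact coordinates, and distance was taken between midpoints. Distal regions were placed on GENCODE M1 exons and gene bodies. Shares carry exact binomial intervals at 95% (scipy 1.17.1, pandas 2.3.3, pysam 0.24.0), and the pairing of lists was tested on simulated data. The members and lists were chosen with earlier results of these data known. Any factor gene could be named. Listed and called numbers were given for the 10 genes with the most calls, the highest and those without a call in each group, the 5 longest calls, the 5 largest Hi-C numbers and replicate differences, and genes that share regions. Of the symbols fixed for the complexes, 5 were not analysed here (Eif1ad, Eif1ay, Eif2s1, Eif2s3y and Eif3m). Annotated starts of other genes also lie in promoter fragments of Eef1b2 (Ndufs1), Eif1a (Tmed7), Eif2a (Serp1), Eif2b1 (Gtf2h3), Eif2b4 (Snx17), Eif3k (Map4k1), Eif4a1 (SNORA67), Eif4a2 (Snord2), Eif4e (Mir1956), Eif4g2 (snoU97), Eif5a2 (1700112D23Rik) and Eif6 (Gm16098).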

Additional observations from a re-analysis of the deposited data

How the results depend on the processing

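With the list of a single replicate in place of both, the number of genes with an interaction was 60 to 62, of interactions 2447 to 2742, of distal regions per gene (median) 21.0 to 29.0, the median distance 20.8 to 72.1 kb and the share in Hi-C 4.01 to 5.84%. Over 15 kb only, 43 of 63 genes kept a called interaction (beside 41.3% of all listed genes), 211 interactions remained, the median fell to 1.00 distal region per gene and the median distance was 32.8 kb. Of the 211, 5.21% were in Hi-C, beside 5.35% over all genes, and 14.7% of replicate 1 interactions were in replicate 2. With distal regions matched within 1 kb, 1401 interactions were called, the median was 11.0 distal regions per gene, 8.14% were in Hi-C and 57.3% of replicate 1 interactions matched replicate 2. By gene in place of promoter fragment, 27.2% did. The authors' combined list also held 570 interactions of these genes, but 107 of the called ones, among them all 50 of Eif1, stood there with another promoter fragment, which adjoined the first in 89 cases. With that list 10.2% of the interactions were in Hi-C. Without Argonautes, kinases and binding proteins, 39 of 49 genes had a call. The remaining values, with adjoining fragments merged and without Eif1 (chosen after seeing the data), stayed within 1.5 times for counts and within the binomial interval for shares, with medians of 3.00 to 4.00 distal regions and 11.1 to 13.7 kb. The spread of the single-replicate medians exceeds these medians, so it sets no useful limit on them. No promoter fragment was named for a further gene, so leaving out such genes could change nothing and checks nothing. Genes whose promoter fragments hold annotated starts of other genes were not left out. No paired analysis was possible because the Hi-C replicates are pooled in 1 list and no result comes from a test. Without read numbers, a region missing from a list cannot be told from one below the authors' minimum, and with 2 replicates the spread between samples is known only as a range.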
